A study of Mus musculus with 120 samples.

Results

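The NCAM and DSCAM families of neural cell-surface adhesion molecules and the enzymes that polysialylate NCAM were followed through the differentially methylated windows of APP-nlgf mice. They comprised 6 genes, namely the neural cell adhesion molecules Ncam1 and Ncam2, the Down syndrome cell adhesion molecules Dscam and Dscaml1, and the polysialyltransferases St8sia2 and St8sia4. Windows were selected by position, as every called window that overlapped or lay within 10 kb of one of the 6 RefSeq gene bodies, and this gave 16 of the 8961 windows in the authors' deposited table. Of the 6 genes 5 held at least 1 window. Because the windows had to be called to be counted, the counts, signs and sizes below describe the deposited lists and carry no test.

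Methylation was read by bisulfite sequencing of the whole genome, in which unmethylated cytosine is converted and read as thymine while methylated cytosine is kept. Hippocampus and blood came from wild-type mice and from APP-nlgf mice at postnatal weeks 3, 8 and 24, with 10 libraries in each of the 12 groups, 5 from males and 5 from females. In APP-nlgf mice the amyloid-beta part of the native App gene is humanised, and the gene bears familial Alzheimer mutations. The mutant protein is thus made under the native promoter and in every cell type that uses it. Per tissue and week the authors set APP-nlgf against wild type with sex as a covariate, which gave 6 lists of 1 kb windows. For each window they deposited a difference in methylation, in percentage points, with its p and adjusted p. A positive difference is taken to mean more methylation in APP-nlgf, an order known from the name of the deposited comparison alone, and every direction given here would turn if it were the reverse. Levels and coverage of single libraries were not used here. The depth of reads at a window is therefore unknown, and values carry no error between animals. Both tissues are mixtures of cell types, and a change in the cell mixture cannot be told apart from a change of methylation within a cell type. The tissue labels were not checked against marker genes, since the list holds no expression.

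NCAM proteins sit on the surface of neurons and glia and hold cells together through their immunoglobulin domains, mostly by binding the same molecule on a neighbouring cell. Polysialic acid, a long chain of sialic acid residues added almost entirely to NCAM1, weakens that adhesion and is abundant on migrating and newly formed neurons, including those of the adult dentate gyrus. St8sia2 and St8sia4 make the chain, the first mainly during development and the second mainly in the mature brain. DSCAM proteins are larger relatives that mediate recognition between neurites and keep the branches of like neurons apart. Methylation at a CpG-rich promoter usually goes with silencing, whereas the bodies of genes are mostly methylated whether or not they are transcribed.

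Promoter entries from RefSeq (GRCm38.p6) were at hand for 4 of the 6 genes, Ncam2, Dscam, St8sia2 and St8sia4. Each covers 250 bases before and 50 after the annotated start. For Ncam1 and Dscaml1 no entry was at hand, so their strand and start were not used. Those of the paired enzymes and of Ncam2 are shown because they mark the CpG-rich starts near which, or away from which, the called windows lay. Each is written 5′ to 3′ on the strand of the gene, with every CpG, the dinucleotide that most often carries methylation, in capitals.
St8sia2 (chr7:74013633-74013932, minus strand): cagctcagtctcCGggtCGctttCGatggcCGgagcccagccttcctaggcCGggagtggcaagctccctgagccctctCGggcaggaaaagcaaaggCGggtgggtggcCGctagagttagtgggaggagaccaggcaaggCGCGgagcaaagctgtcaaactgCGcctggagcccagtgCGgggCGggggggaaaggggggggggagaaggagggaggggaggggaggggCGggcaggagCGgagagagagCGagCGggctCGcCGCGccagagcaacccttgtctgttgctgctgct
St8sia4 (chr1:95667545-95667844, minus strand): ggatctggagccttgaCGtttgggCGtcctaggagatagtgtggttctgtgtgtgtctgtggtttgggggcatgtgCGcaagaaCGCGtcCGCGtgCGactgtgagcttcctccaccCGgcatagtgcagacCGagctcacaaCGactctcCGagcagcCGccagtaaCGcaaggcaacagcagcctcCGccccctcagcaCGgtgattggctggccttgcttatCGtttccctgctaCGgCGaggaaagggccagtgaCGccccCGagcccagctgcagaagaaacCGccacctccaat
Ncam2 (chr16:81200447-81200746, plus strand): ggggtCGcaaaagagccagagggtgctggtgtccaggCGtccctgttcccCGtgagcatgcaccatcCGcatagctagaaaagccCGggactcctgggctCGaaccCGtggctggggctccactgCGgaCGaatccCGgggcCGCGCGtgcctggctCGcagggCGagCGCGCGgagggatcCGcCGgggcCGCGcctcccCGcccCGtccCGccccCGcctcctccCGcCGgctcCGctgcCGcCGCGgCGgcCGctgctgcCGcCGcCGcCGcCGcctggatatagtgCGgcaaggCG

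The St8sia2 promoter held 20 CpGs, that of St8sia4 22, that of Dscam 26 and that of Ncam2 41, against a median of 7 (quartiles 3 and 20) over the 32851 promoters of the table. Fewer CpGs than in Ncam2 were found in 96.5% of those promoters, and fewer than in St8sia2 in 73.5%. The GC box, searched as GGGCGG on both strands, occurred 2 times in St8sia2, 2 times in Ncam2, 1 time in St8sia4 and 0 times in Dscam, and 35.7% of all promoters of the same length held it. A TATA box, searched as TATAAA on both strands, was in none of these 4 sequences and in 13.6% of all promoters. None of the 16 windows overlapped one of the 4 promoters. The nearest among these 4 genes was a hippocampal window of St8sia2, which ended 0.682 kb inside the gene from its annotated start. The nearest windows of Ncam2 and Dscam lay 6.3 kb and 104 kb from theirs. Ncam1 and Dscaml1 each had a window with its centre 1.89 kb and 3.07 kb inside an end of the gene. Whether those ends are the starts was not determined.

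**Figure D1:**
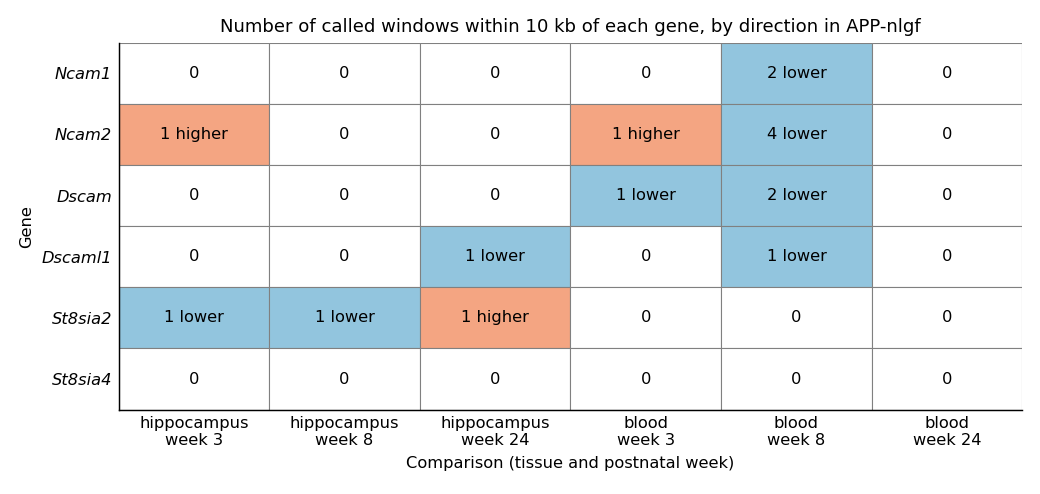
Number of called windows at each gene (rows) in each comparison of tissue and postnatal week (columns), coloured by direction in APP-nlgf. Blood at week 8 holds 9 of the 16 windows, all lower, St8sia2 has 1 window at each age of hippocampus, and St8sia4 and blood at week 24 have 0.

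Of the 16 windows 13 were lower in APP-nlgf and 3 were higher, 5 came from hippocampus and 11 from blood, and 14 lay inside a gene body. Over all 8961 windows 33.1% were higher. Blood at week 8, a list with 88.9% of its windows lower, gave 9 of the 13 lower windows. No position was called in more than 1 list. The grid of counts by gene and comparison shows where they fell. In hippocampus 2 of the 6 genes had a window at week 3, 1 at week 8 and 2 at week 24, where 2.6%, 1.74% and 2.43% of the 21631 coding genes had one. In blood 2 of the 6 had a window at week 3, 4 at week 8 and 0 at week 24, beside 2.79%, 19.5% and 1.25% of coding genes. All 4 of the genes counted in blood at week 8 had a lower window, as did 18.8% of coding genes and 32.8% of those of at least 200 kb. Long genes held windows more often, and 4 of the 6 genes exceed 200 kb. Of the 990 coding genes of at least 200 kb, 15.2%, 13.1% and 13.7% had a window in hippocampus at weeks 3, 8 and 24, and 15.8%, 37.8% and 8.38% in blood. In any list a window was present at 26.7% of coding genes and at 63.9% of the long ones. The genes were chosen with these lists known, so nothing is read from their counts against that background.

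The smallest gene body of the set with a window was that of St8sia2, and it was the gene with a window at all 3 ages of hippocampus. St8sia2 spans 74.6 kb on the minus strand of chromosome 7 (73939119 to 74013727). At week 3 the authors' deposited table gives -12.6 points in the window at 74012001 to 74013000, just inside the start of the gene (adjusted p = 0.0129). At week 8 it gives -14.9 points in the middle of the gene, at 73971001 to 73972000 and 41.7 kb from the start (authors' deposited table, adjusted p = 0.0226). At week 24 the authors' deposited table gives 11.2 points at 74021001 to 74022000, which is 7.32 kb upstream of the start and outside the gene (adjusted p = 0.0761). The 3 windows thus lay at 3 positions, 40 kb and 8 kb apart, and the sign was lower at the 2 younger ages and higher at the oldest, so that no single site was followed through time. Blood had 0 windows here at any week. Of the 21631 coding genes 3 had a window in all 3 hippocampal lists, and 2 of these, St8sia2 and Nell1, had none in blood. Nell1 encodes a secreted growth factor-like protein and was named after its values were seen. Among the 2514 coding genes of 50 to 100 kb, 18 had at least 3 windows over the 6 lists (0.716%), 2 had at least 3 in hippocampus, and 69.4% had none. The pattern and the threshold of 3 windows were taken from St8sia2 itself in these same lists, so their rarity is no test. Both need the week 24 window, which lies outside the gene and has an adjusted p of 0.0761. By absolute size these differences were of middle or low rank, with the week 3 window within the top 64.9%, the week 8 window within the top 39.1% and the week 24 window within the top 83.5% of their lists.

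St8sia4, the polysialyltransferase of the mature brain, had 0 windows within 10 kb of its 80.0 kb body on chromosome 1 (95587682 to 95667717). A hippocampal window at week 3 lay just beyond that limit, 15.4 kb upstream of the annotated start at 95683001 to 95684000. The authors' deposited table lists it at 18.3 points with an adjusted p of 0.00473. At the same age and tissue the paired enzyme St8sia2 was lower just inside its start, so the nearest windows of the 2 enzymes had opposite signs at week 3. A window absent from the list may have differed too little, missed the threshold or been too thinly covered.

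**Figure D2:**
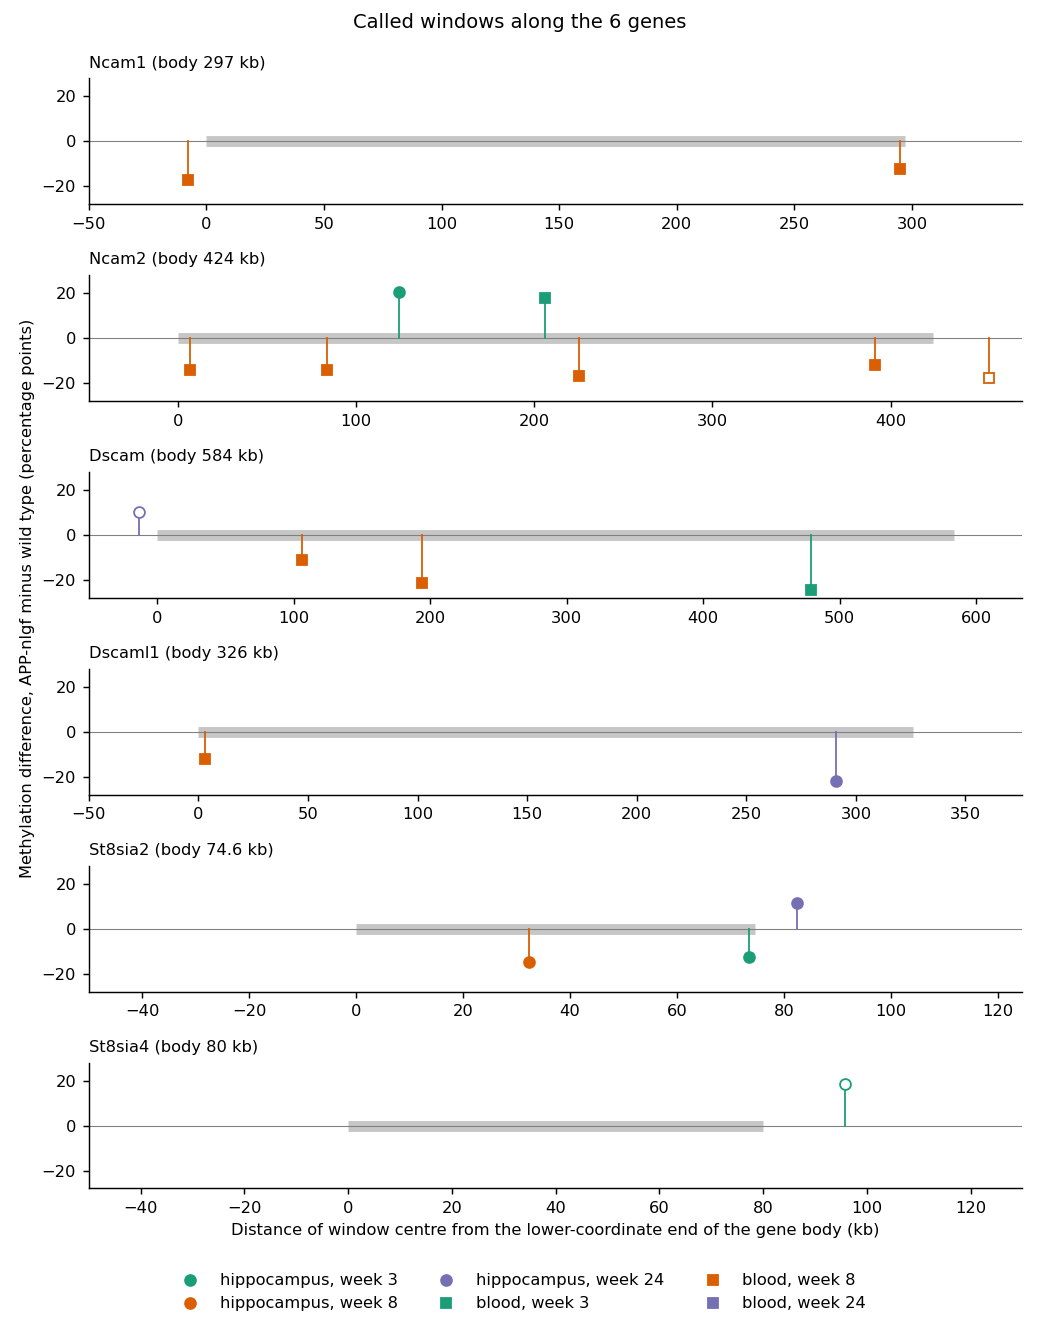
Position of each called window along the 6 genes (x axis, distance of the window centre from the lower-coordinate end of the gene body in kb, with the body as a grey bar) and its methylation difference in percentage points (y axis). Circles are hippocampus, squares blood, colours the week, and open symbols the 3 windows between 10 and 50 kb away. Week 8 blood windows all point down, and the week 3 windows of Ncam2 both point up.

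Ncam2, an NCAM family member best known from the axons of olfactory neurons and also present at hippocampal synapses, had the most windows of the set. Its body covers 424 kb on the plus strand of chromosome 16 (81200697 to 81624290) and held 6 windows, all inside the gene. At week 3 both tissues had a higher window, and the 2 windows were 81 kb apart. In the authors' deposited table the hippocampal one, 123 kb from the start at 81324001 to 81325000, stood at 20.6 points (adjusted p = 0.0712). The blood one, 205 kb from the start at 81406001 to 81407000, stood at 18.1 points in the authors' deposited table (adjusted p = 0.0732). At week 8 blood had 4 windows in Ncam2 and all were lower. They lay 6.3, 83.3, 224 and 390 kb from the start and so were spread from near the start to near the far end of the gene. Along this order the authors' deposited table gives -14.1, -14.2, -16.8 and -12.1 points, with adjusted p between 0.0546 and 0.0878. None of the 6 windows of Ncam2 thus had an adjusted p under 0.05. The week 3 and week 8 blood windows of opposite sign nearest to each other were 18 kb apart. Whether the difference between the ages is itself larger than the error was not tested, because the list gives no value for a window that was not called. Of the 990 long coding genes 17 (1.72%) had at least as many windows as Ncam2 over the 6 lists, and 13 had at least 4 windows in blood at week 8. Both counts include Ncam2 itself, and both thresholds were taken from it in these same lists, so their rarity is no test.

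Ncam1, which encodes the main carrier of polysialic acid, had 2 windows, both in blood at week 8, both lower and at opposite ends of the gene. Its body spans 297 kb on chromosome 9 (49502129 to 49799393). The window at 49797001 to 49798000 lay inside the gene with its centre 1.89 kb from the high-coordinate end, and the authors' deposited table gives it -12.3 points (adjusted p = 0.0170). The window at 49494001 to 49495000 lay 7.13 kb outside the low-coordinate end and stood at -17.0 points in the authors' deposited table (adjusted p = 0.0172). No hippocampal window was listed at Ncam1 at any week. Among long coding genes 109, Ncam1 included, had at least 2 windows in blood at week 8, a threshold taken from Ncam1 itself.

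Dscam, a receptor for self-recognition of neurites and for the guidance cue netrin, had 3 windows, all lower and all in blood. Its body of 584 kb on the minus strand of chromosome 16 (96587452 to 97171113) is the longest of the 6. At week 3 the window at 97066001 to 97067000, 104 kb from the start, had the largest absolute difference of the 16. The authors' deposited table gives it -24.4 points with an adjusted p of 0.0866, within the top 7.2% of its list by size. At week 8 the authors' deposited table gives -21.3 points at 96781001 to 96782000 (adjusted p = 0.0352), within the top 2.14% of that list. The other week 8 window, at 96693001 to 96694000, was the smallest of the 16 by absolute size, with -11.2 points in the authors' deposited table (adjusted p = 0.0706). These 2 windows were 87 kb apart in the stretch of the gene far from its start. No hippocampal window was listed inside Dscam. The nearest, at week 24, lay 12.5 kb past the far end of the gene and outside the limit, at 10.1 points in the authors' deposited table (adjusted p = 0.0653).

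Dscaml1, the DSCAM paralogue that limits neurite clumping in the retina and is widely expressed in brain, had 1 lower window in each tissue. Its body of 326 kb lies on chromosome 9 (45427433 to 45753713). In hippocampus at week 24 the authors' deposited table gives -21.8 points at 45718001 to 45719000, 35.2 kb from the high-coordinate end, with an adjusted p of 0.0979. That is the largest adjusted p of the 16 windows, and the difference was within the top 7.59% of its list by size. In blood at week 8 the window at 45430001 to 45431000 had its centre 3.07 kb inside the low-coordinate end and also overlapped the noncoding gene 4833428L15Rik, so it cannot be given to Dscaml1 alone. The authors' deposited table gives it -11.9 points and an adjusted p of 0.000790, the smallest of the 16. The window with the smallest adjusted p thus had one of the smaller differences, and the 2 windows with the largest differences, at Dscam in blood and at Dscaml1 in hippocampus, were close to the adjusted p limit of 0.1.

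**Figure D3:**
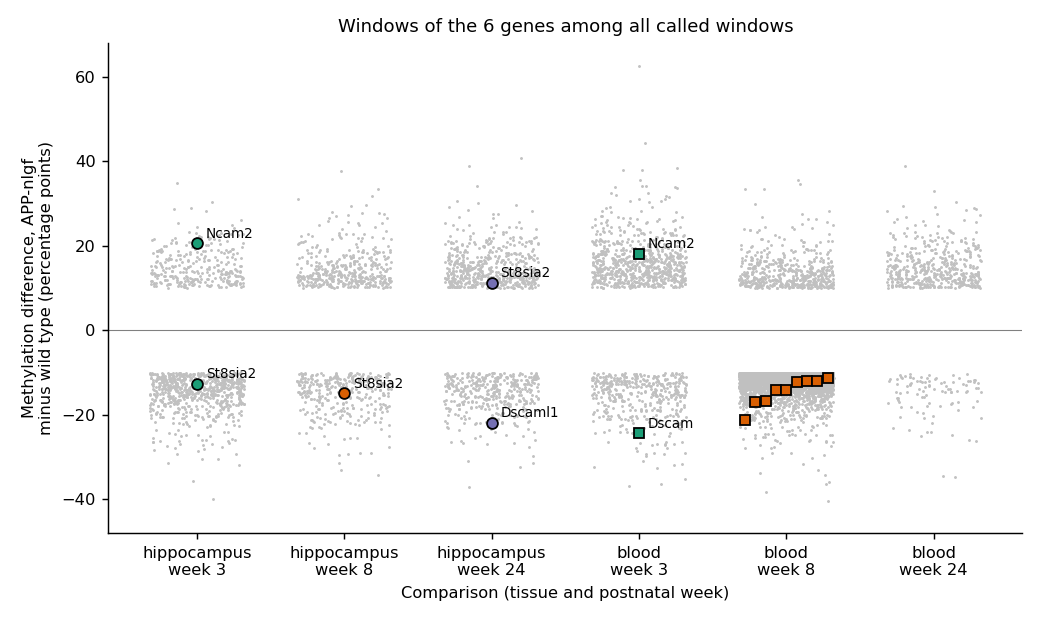
Methylation difference (y axis, percentage points) of every called window in each comparison (x axis, grey points) with the windows of the 6 genes in colour. No grey point lies within 10 points of 0, and the 9 member windows of blood at week 8 lie between -21.3 and -11.2 in a list of mostly lower windows.

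The plot of member windows among all called windows sets them beside the balance of signs of each list. Outside blood at week 8 a list held at most 2 member windows, too few to follow or depart from that balance. Blood at week 8 gave 9 windows at the 4 adhesion genes and all were lower, in a list of 4526 windows of which 88.9% were lower. Their median absolute difference was 14.1 points, beside 11.7 points in that list and 11.8 points over the windows of long coding genes in it. None of the 9 windows was closer than 1 kb to either end of a coding gene, whereas 41.9% of the list and 25.3% of its windows at long coding genes were. Their median adjusted p was 0.0546, beside 0.0189 in the whole list and 0.0323 over its windows at long coding genes. Those 9 windows thus had a larger median difference and a larger median adjusted p than the list around them, which is a description of chosen windows. In hippocampus at week 3, where 70.5% of windows were lower, Ncam2 was higher and St8sia2 lower. The 1 window of hippocampus at week 8, at St8sia2, was lower in a list with 54.6% of windows higher. Hippocampus at week 24 had 58.6% of windows higher, and here St8sia2 was higher and Dscaml1 lower. At week 3 in blood, with 63.2% of windows higher, Ncam2 was higher and Dscam lower. Of all 16 windows 10 had an adjusted p of 0.05 or more (62.5%), against 44.1% of all listed windows, and 1 was under 0.001.

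App, the edited gene, lies on chromosome 16 together with Ncam2 and Dscam. Ncam2 lies 3.33 Mb from App on one side and Dscam 11.4 Mb on the other, and these 2 genes held 9 of the 16 windows. Windows of Ncam2 were 3.36 to 3.74 Mb from App and those of Dscam 11.5 to 11.9 Mb. Within 5 Mb of App the lists held 6, 3 and 3 windows in hippocampus at weeks 3, 8 and 24, and 2, 25 and 3 in blood. Chromosome 16 held between 3.3% and 4.94% of the windows of each list. The part that linkage to the edited locus plays in these windows was not tested. Without the 2 genes on chromosome 16 there were 7 windows at 3 genes, 6 of them lower.

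Genes that act with the 6 were examined as lists, which were drawn up with earlier results of these data known. In the synthesis of sialic acid and the other ST8 sialyltransferases 2 of 9 genes had a window in any list (22.2%), beside 26.7% of all coding genes. Both windows were in blood at week 8, where 19.5% of coding genes had one. In the authors' deposited table Gne, the key enzyme of sialic acid synthesis, stood at -10.6 points (adjusted p = 2.53e-05), and St8sia5, a ganglioside sialyltransferase, at 12.3 points. Of 4 sialidases, which remove sialic acid, 1 had a window (25%, a share near that of all coding genes), Neu2 at -12.7 points in blood at week 3 in the authors' deposited table. Among 10 NCAM partners and signalling genes there were 3 with a window (30.0%), again close to the 26.7% of all coding genes, and 1 of their windows was higher and 3 were lower. Among them the authors' deposited table gives the Src-family kinase gene Fyn -15.6 points in hippocampus at week 24. In blood at week 8 it gives the calcium channel gene Cacna1c -11.8 points and the GDNF co-receptor gene Gfra1 -10.3 points (authors' deposited table). In hippocampus at week 8 a window 1.24 kb outside the body of Cacna1c, far from the blood window, stood at 10.9 points in the authors' deposited table.

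**Figure D4:**
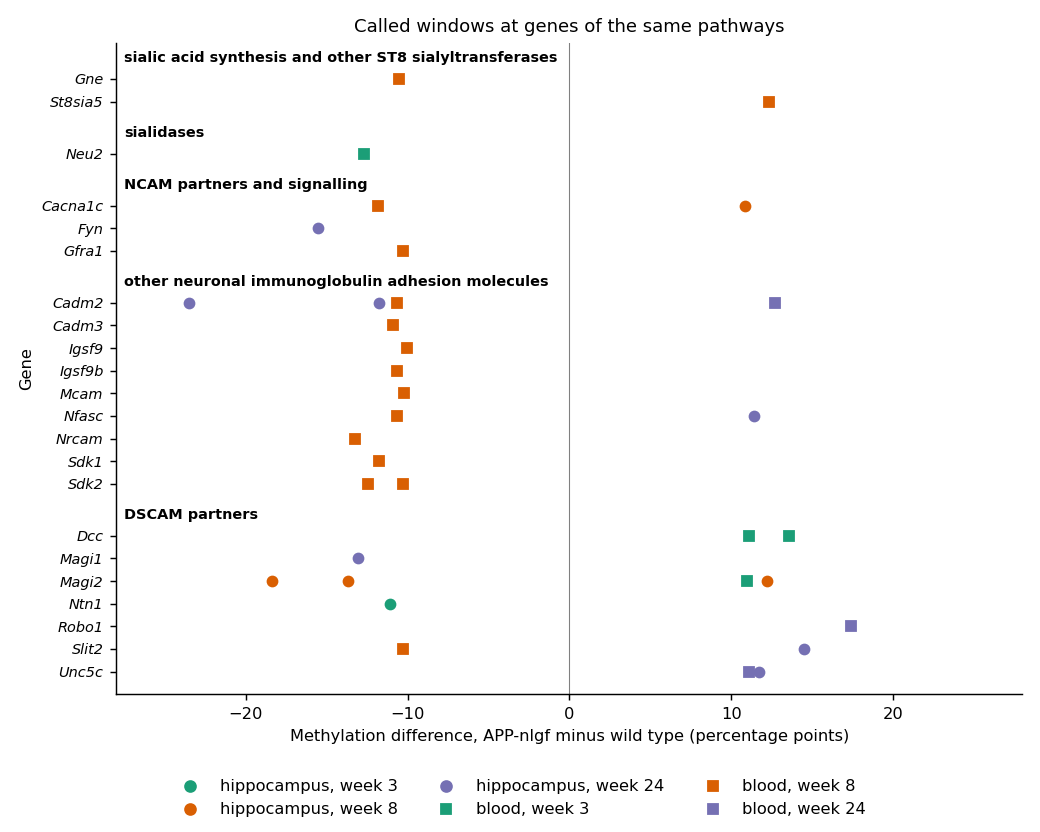
Methylation difference (x axis, percentage points) of each called window at the genes of the 5 related lists (y axis), with circles for hippocampus, squares for blood and colours for the week. All 10 blood week 8 windows of the other immunoglobulin adhesion molecules lie between -13.2 and -10.0, and the DSCAM partners have windows on both sides of 0.

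The other immunoglobulin adhesion molecules listed showed the same sign in blood at week 8 as the 4 adhesion genes. Of 14 such genes 9 had a window in any list (64.3%), and all 9 had one in blood at week 8, with 10 windows lower and 0 higher. The shares over all coding genes were 26.7% in any list and 19.5% in blood at week 8, and those over coding genes of at least 200 kb were 63.9% and 37.8%. The median length of these 14 genes was 191 kb. Those with a window ranged from 8.07 kb (Mcam) to 974 kb (Sdk1), so long coding genes are a background for only part of them. The list around them was 88.9% lower, and windows at long coding genes in it 83.7% lower. The authors' deposited table gives -13.2 points at Nrcam, an L1-family adhesion gene, and -12.4 points at Sdk2, a sidekick gene of synaptic layer recognition, both in blood at week 8. In hippocampus at week 24 it gives -23.5 points at Cadm2, a synaptic adhesion gene (authors' deposited table, adjusted p = 0.0421). DSCAM partners, with a median length of 369 kb, had a window at 7 of 9 members (77.8%), beside 63.9% of coding genes of at least 200 kb. Of their 13 windows 8 were higher and 5 lower, and 1 was in blood at week 8. Outside blood at week 8 the whole lists had from 29.5% to 82.5% of windows higher. In the authors' deposited table the scaffold gene Magi2 had 3 windows of both signs in hippocampus at week 8, at -18.4, -13.7 and 12.2 points. The guidance receptor gene Robo1 stood at 17.4 points in blood at week 24 in the authors' deposited table. Robo1 and Cadm2 lie on chromosome 16, as App does, and the part that linkage plays was not tested. The guidance ligand gene Slit2 stood at 14.5 points in hippocampus at week 24 (adjusted p = 0.00401) and at -10.3 points in blood at week 8 in the authors' deposited table. Over all listed windows the median absolute difference was 12.6 points, beside 14.5 points for the 16 windows, 11.2 points for the other adhesion molecules and 12.2 points for DSCAM partners. The plot of windows at genes of the same pathways gives each value.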

How the data were processed

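Whole-genome bisulfite sequencing libraries were grouped by tissue, genotype and week from their titles. The submitters' processing notes name methylKit, Bismark, Trim Galore and FastQC and the build mm10. What coverage filter, window test and adjustment stand behind the values is not given in the sources used here. Each p-value and adjusted p-value is the authors' own, as deposited, and methylation differences were deposited in percentage points. In every listed window, as checked on the list, the difference was 10 points or more in size and the adjusted p below 0.1.

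Windows were assigned to each gene body of the RefSeq GRCm38.p6 table (same coordinates as mm10) at most 10 kb away, with Python 3.11.15 and pandas 2.3.3; the assignment was tested on simulated data. The background was 21631 coding genes on X and the autosomes. Exons and introns are not in this table. Ranks, medians and distances were computed from the list, and no test was run. An exact Clopper-Pearson interval at 95% of the share of higher windows served only to sort alternatives; the windows are selected and not independent, so it is no measure of error. All 16 windows of the 6 genes are described, and per related list the up to 3 genes with the largest absolute differences. The genes, the related lists and the alternatives were chosen with earlier results of these data known.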

Additional observations from a re-analysis of the deposited data

How the results depend on the processing

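Stricter calling removed most windows. At an adjusted p under 0.05 there were 6 windows in all 6 lists together instead of 16, namely 1 in hippocampus at week 3, 1 at week 8, 0 at week 24, and 0 and 4 in blood at weeks 3 and 8, and 0 of these 6 were higher (0%), where 3 of 16 were (18.8%). At that limit of 0.05, 4 genes kept a window in place of 5, and Ncam2, the gene with the most windows, kept none. With an adjusted p under 0.001, 1 window of 1 gene was left, in blood at week 8, with 0 in each hippocampal list and in blood at week 3, and it was lower (0% higher). Among windows of at least 15 points 7 were left, with 1, 0 and 1 in hippocampus at weeks 3, 8 and 24 and 3 in blood at week 8, and 28.6% were higher. Counting gene bodies alone left 1 window in hippocampus at week 24. Without chromosome 16 there were 7 windows (14.3% higher), and without the blood week 8 list, a setting chosen after seeing the data, also 7, of which 3 were higher (42.9%). Windows within 50 kb gave 26.3% higher, and merging windows within 10 kb changed nothing. Counts stayed within 1.5 times, or shares within the wide binomial interval of the main share, in 37 of the recomputed values, and 22 did not; shares of so few windows cannot show a change. No paired analysis was possible because the list holds no value for a single library, and for the same reason no library could be left out. These settings filter the deposited calls, so they cannot show what other coverage or window choices would give, and the coverage behind each window is unknown.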
